A study of Sus scrofa with 23 samples.

Results

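The genes described here are the RAB, ARF and ARL small GTPases, the molecular switches of vesicle traffic, measured in pig bone marrow-derived macrophages. They were taken as every gene with a single-gene probe set whose symbol is RAB, ARF or ARL followed by a number and at most 1 letter, and the probe set with the highest mean stood for the gene. That gave 34 of the 6765 genes measured this way: 26 RAB genes, 5 ARF genes and 3 ARL genes, with 54 probe sets between them. The RefSeq gene table for pig lists 84 symbols of this form, and the other members, among them RAB5A, RAB20, RAB27A and the ARL4 and ARL8 genes, were not analysed here. A further 8 genes that share the prefix, such as RAB3GAP1 and ARL6IP5, name partner proteins and were counted with the regulators. The macrophages were grown with recombinant human CSF1 from the bone marrow of 3 Large White x Landrace F1 pigs, whose age the labels do not give. Per the labels there were 6 arrays of unstimulated cells (0 h), and 6, 6 and 5 arrays of cells exposed for 2, 7 and 24 h to 100 ng/ml lipopolysaccharide (LPS) of Salmonella enterica serotype minnesota Re 595. Cultures were run in duplicate for each pig and time, with the duplicate of pig 3 at 24 h not among the arrays used here. That made 7 arrays labelled pig 3, 8 labelled pig 2 and 8 labelled pig 1, with pigs 3 and 1 labelled male and pig 2 female.

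RAB, ARF and ARL proteins are active when bound to GTP and inactive when bound to GDP. Exchange factors load them with GTP, and GTPase-activating proteins switch them off. In the active state they recruit effectors such as coats, motors and tethers to one membrane, so that each organelle carries its own set. In macrophages they are known for steering phagosome maturation, receptor recycling and the release of cytokines.

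The labels did not pass a check against the data. EIF1AY, which encodes a translation initiation factor and is Y-linked in the RefSeq table, had a log2 intensity of 3.60 to 4.08 on 8 arrays and of 8.16 to 9.45 on the other 15. Of the 23 arrays, 8 had a level opposite to their sex label, 4 of them labelled male and 4 female. Matching arrays by correlation over the probe sets of other genes gave 11 mutually closest pairs, and every pair joined neighbouring columns of the deposited table that carried the same labelled pig and different labelled times. All comparisons below are therefore between arrays as labelled and cannot show whether LPS changed a gene. No condition was assigned from the order of the table. Of 14 macrophage markers 11 were measured and all 11 had a mean log2 value above that of the lowest 25% of probe sets, among them FCGR3A (median 12.74) and TYROBP (median 12.98), where the bound was 4.49. The lowest was ITGAM, close to that bound at 4.39 to 5.03 (median 4.73), and MARCO had a median of 6.00. CSF1R, CD68 and LYZ were not among the markers measured. Markers of other cell types were above that bound too, in 5 of 5 measured for granulocytes, 7 of 7 for stromal cells, 3 of 7 for T and NK cells, 2 of 3 for B and plasma cells, 2 of 4 for endothelium and 2 of 2 for erythroid cells. Among them S100A9 (granulocytes) reached 13.73, FN1 (stromal cells) had a median of 11.14 and CD2 (T and NK cells) reached 10.45, while CD3E and CD3G had medians of 4.56 and 4.46.

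Without use of any label, some of the GTPases were among the steadiest genes on the arrays, and wide ranges were not more frequent among them than among all genes. The range of a gene, its highest minus its lowest log2 value over the 23 arrays, had a median of 0.82 over the 34 genes and of 0.96 over all 6765. A range of at least 1 log2 unit, that is a 2-fold change between the extreme arrays, was reached by 12 of the 34 (35.3%), against 47.5% of all genes. A range of at least 2 units was reached by 3 of the 34, against 897 of the 6765. The members just inside that limit were RAB34 (1.16) and RAB32 (1.15), and those just outside were ARF5 (0.97) and RAB40C (0.91). Within the 11 most similar pairs the median difference of the 34 genes was 0.08 on the log2 scale. These pairs were chosen for their similarity, so this is a low estimate of measurement noise.

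**Figure D1:**
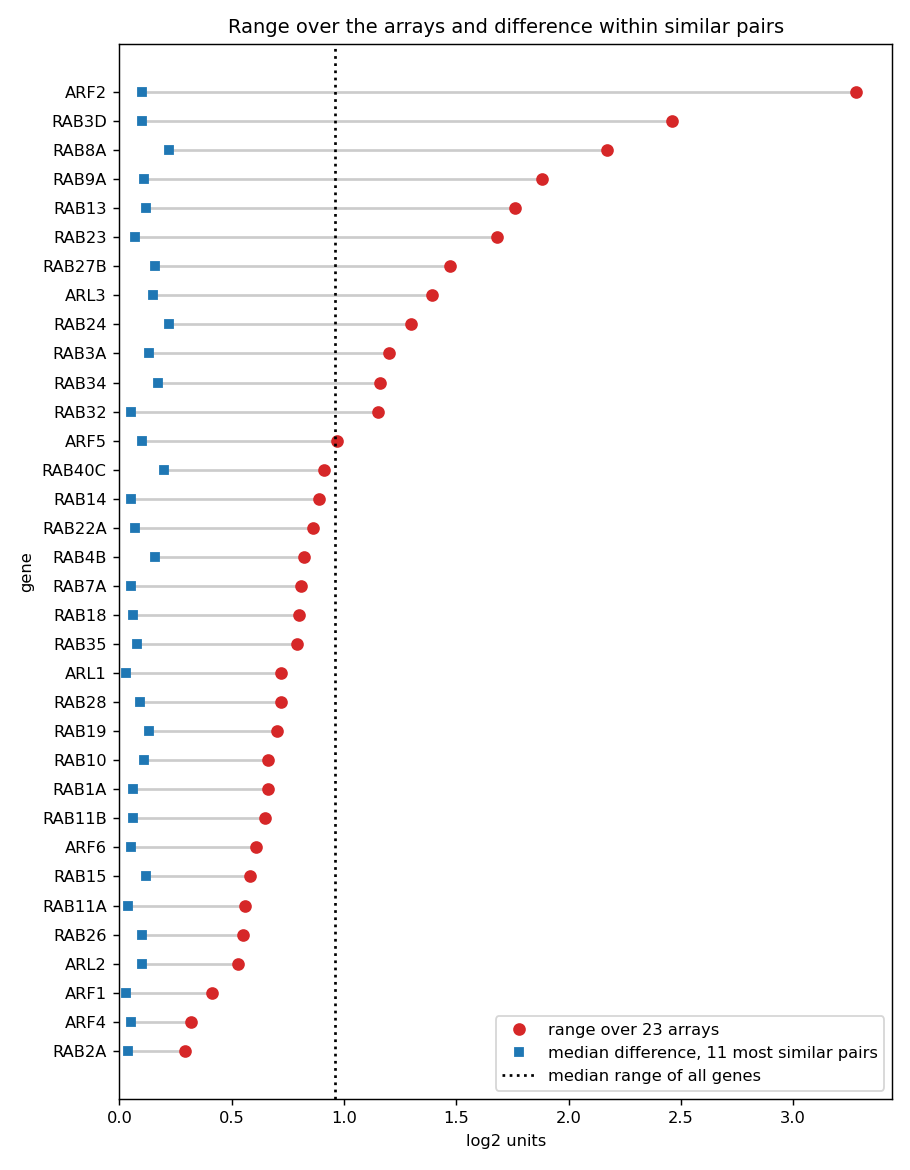
Range over the 23 arrays (circles) and median difference within the 11 most similar pairs of arrays (squares) for each of the 34 genes, in log2 units. ARF2 has the widest range (3.28) and RAB2A the narrowest (0.29), and the dotted line marks the median range of all genes (0.96).

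The GTPases of the endoplasmic reticulum and Golgi held both extremes. RAB2A, which acts between the endoplasmic reticulum and the Golgi, ranged over 0.29 log2 units (10.37 to 10.66), less than all but 0.5% of genes. ARF4, a class II ARF of the Golgi, ranged over 0.32 (12.37 to 12.69), and ARF1, which recruits the COPI coat and clathrin adaptors, over 0.41 (11.89 to 12.30). ARL2, a regulator of tubulin folding and microtubules, was the next narrowest, with a range of 0.53 (7.74 to 8.27). ARF2, a class I ARF like ARF1, had the widest range of the 34, with values of 6.88 to 10.16. This range of 3.28 log2 units, or 9.71-fold, exceeded that of 96.0% of genes, and the most similar pairs differed in ARF2 by a median of 0.10 and at most 0.32. Its second probe set ranged over 2.79. Of the 9 genes in this group, 1 had a range of at least 1 unit, against 47.5% of all genes.

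ARF2 was highest on 4 arrays labelled pig 1, the culture 1 arrays at 0 and 2 h and the culture 2 arrays at 7 and 24 h, at 9.96 to 10.16. The next array stood at 9.13, a gap of 0.82, the widest in any of the 34 genes. TNF, an early LPS-induced cytokine, was at 5.44 and 5.53 on the first 2 of these 4 arrays and at 12.48 and 12.51 on the other 2. The arrays with the highest ARF2 thus held both low and high TNF values, in a range of 5.42 to 12.56 over all arrays. At the other end, ARF2 lay at 6.88 to 7.99 on 5 arrays, all labelled pig 3.

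**Figure D2:**
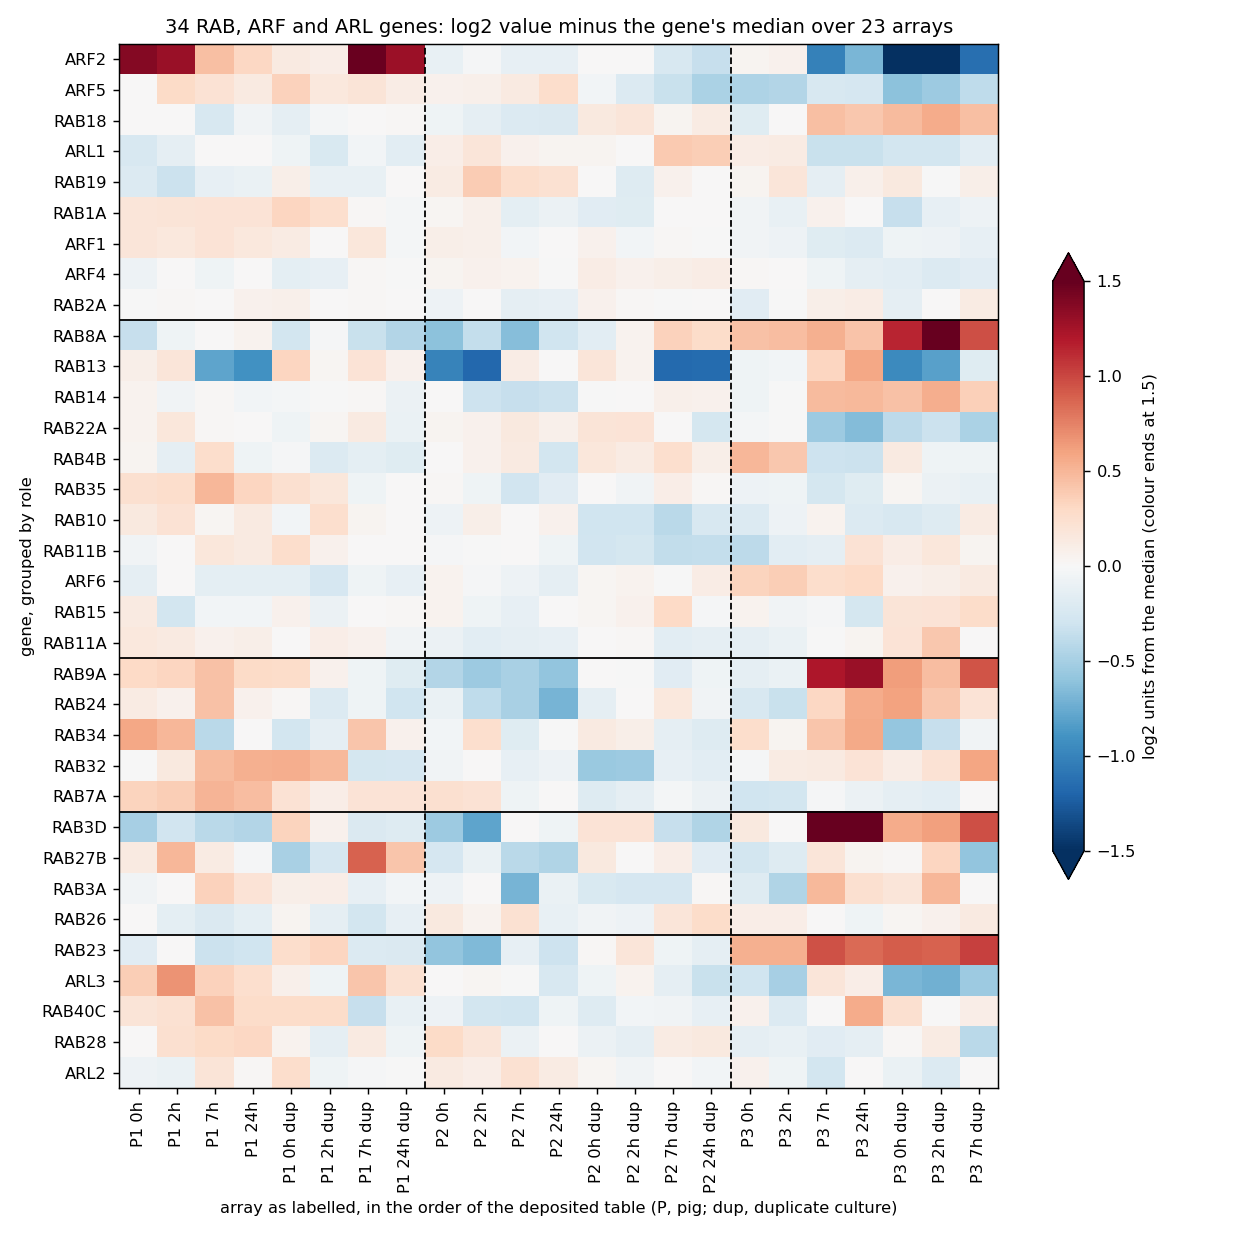
Log2 value minus the gene's own median over the 23 arrays for each of the 34 genes, with arrays in the order of the deposited table and genes grouped by role between the solid lines. Dashed lines part the labelled pigs; ARF2, RAB3D, RAB8A, RAB9A, RAB13 and RAB23 show the deepest colours, while ARF1, ARF4 and RAB2A stay near white.

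RAB13, which serves exocytic traffic to cell junctions, split the arrays in the same way as the Y-linked gene. It lay between 7.22 and 7.61 (median 7.42) on the 8 arrays with low EIF1AY and between 8.22 and 8.98 (median 8.49) on the 15 arrays with high EIF1AY. The 2 sets of arrays did not overlap and stood 0.61 log2 units apart, and RAB13 differed within the most similar pairs by a median of 0.12. Of all 6765 genes, 23 (0.34%) were apart between these sets in either direction, and 18 (0.266%) were lower with low EIF1AY. By the size of the gap RAB13 ranked 3 of these, and it was the only one of the 34 GTPases among them. These sets are not groups of the study and the comparison was made after the values were seen, so it has no test. Only pig 2 is labelled female, with 8 arrays, so the 8 arrays with low EIF1AY may all stem from the same animal. A difference by sex and a difference between individual animals cannot be told apart here. Under the labels RAB13 showed no called difference between pigs, with an adjusted p of 0.669 over the 3 labelled pigs in the limma test.

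**Figure D3:**
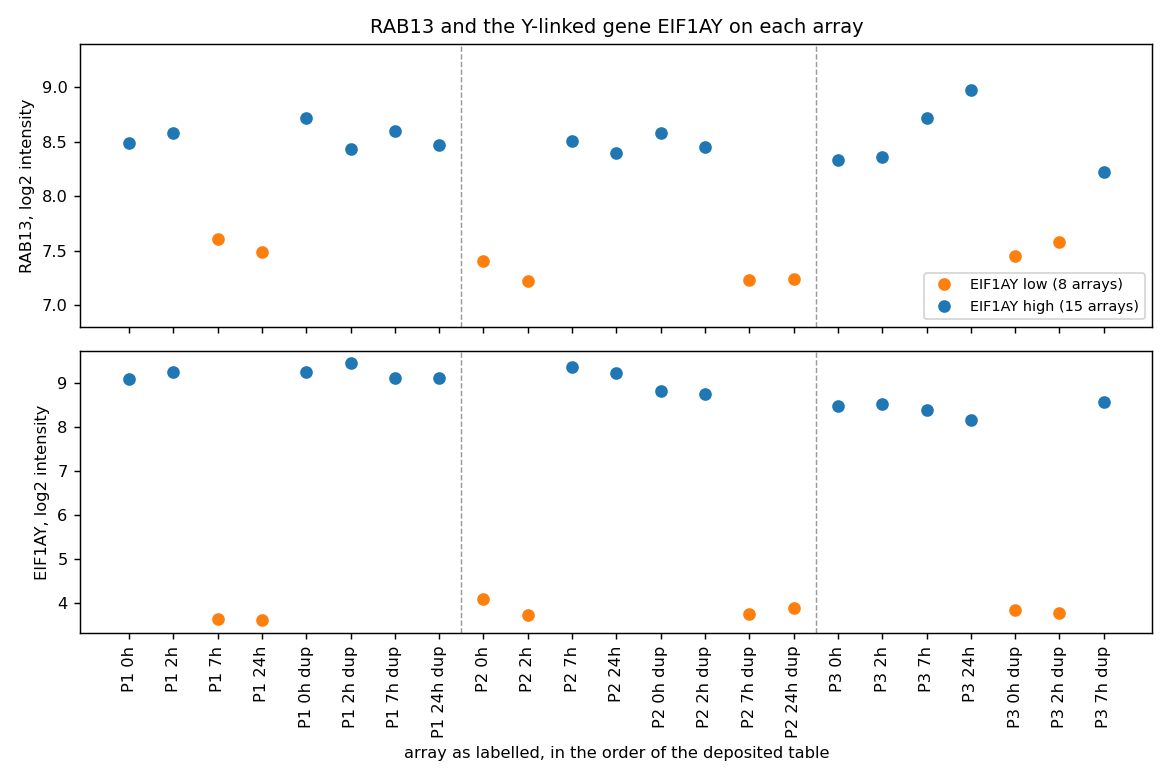
Log2 intensity of RAB13 (top) and EIF1AY (bottom) on each of the 23 arrays, in the order of the deposited table and coloured by EIF1AY level. The 8 arrays with low EIF1AY have RAB13 values of 7.22 to 7.61, below all 15 others (8.22 to 8.98), and they occur under all 3 labelled pigs.

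Between labelled times, 0 of the 34 genes passed the limma test in any of the 5 comparisons or over all times. Duplicate cultures were averaged to 12 pig-by-time means, pig was a term of the fit, and p-values were adjusted over all 23999 probe sets by the Benjamini-Hochberg method. Of all 6765 genes 0.0% were called in each of these comparisons, so the count of the GTPases equals the background. TNF was not called between labelled times either, and on the arrays labelled 0 h it ran from 5.53 to 12.43. Each of the most similar pairs joined arrays of different labelled times. These counts therefore cannot show that the GTPases were steady under LPS. The differences of the members from 0 h ran from -0.32 for RAB4B at 24 h to 0.33 for RAB3D at 24 h, both with an adjusted p of 0.914. For the labelled 24 h against 0 h, 2 of 34 had an unadjusted p under 0.05, against 3.46% of all genes. They were RAB4B, which recycles receptors from early endosomes, and RAB22A, an early endosomal RAB with a difference of -0.23 (SE 0.09, adjusted p = 0.914). On the chosen probe sets, no other time comparison had a member with an unadjusted p under 0.05 (0 of 34). This did not hold for all probe sets that were not chosen. Those of RAB2A and RAB3D that fell under that limit differed by 0.56 and -0.37 at 2 h against 0 h. No probe set of the GTPases that was not chosen was called between labelled times. The share of all genes with such a p was 0.902% at 2 h and 3.1% at 7 h, each set against 0 h. It was 2.16% at 7 h set against 2 h, 3.27% at 24 h set against 7 h, and 2.39% over all times. The median difference of the 34 genes lay between -0.01 and 0.03 in the 5 comparisons, and that of all genes between -0.01 and 0.01. ARF2 shows how wide the arrays of a labelled time were spread, with a lowest, median and highest value of 6.88, 8.71 and 10.06 at 0 h, 7.08, 8.71 and 9.97 at 2 h, 7.55, 8.50 and 10.16 at 7 h, and 7.99, 8.56 and 9.96 at 24 h. All 4 labelled times overlapped. No pig-by-time interaction was called for any of the 34 genes (limma F test on the 23 arrays; 0.0148% of all genes), and 0 of them had an unadjusted p under 0.05, against 4.46%.

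Between labelled pigs the arrays differed more. Arrays were averaged to 4 units per labelled pig, each a culture at the labelled 0 and 2 h or at 7 and 24 h, because those arrays form the most similar pairs. Each pig label is meant to name 1 animal, and the p-values below measure the spread between units under a label. They cannot be read as the spread between replicate animals. Arrays with low and with high EIF1AY occurred under all 3 pig labels, so units under 1 label may come from more than 1 animal. The differences below therefore belong to labels and not to animals known to be distinct. TNF was not called between labelled pigs (adjusted p = 0.206 over all 3 in the limma test) and had a lowest, median and highest log2 value of 6.20, 10.39 and 11.30 under pig 3, 10.06, 11.74 and 12.56 under pig 2, and 5.42, 5.77 and 12.51 under pig 1. Under pig 1 it was at 12.48 and 12.51 on the culture 2 arrays labelled 7 and 24 h, and at 5.42 to 6.10 on all others. The cytokine IL1B had medians of 13.04 under pig 3, 14.08 under pig 2 and 7.98 under pig 1 (limma adjusted p = 0.0591 over all 3). The lack of a call thus does not show that these cytokines were alike under the labels. Summed granulocyte markers ran from 2731 to 15750 intensity units under pig 3, 1193 to 5858 under pig 2 and 1197 to 3759 under pig 1, and summed T and NK cell markers from 255 to 1586 under pig 3, 229.1 to 440 under pig 2 and 181.9 to 225.1 under pig 1. The highest granulocyte sum came mostly from S100A9 (up to 13.73), and the highest T and NK cell sum mostly from CD2 (up to 10.45). No other T and NK cell marker exceeded 6.31 (CD3D), so that sum is not a signal shared by its markers. The part of TNF, of IL1B or of these markers in the differences of the GTPases was not tested. In bulk RNA, fewer cells of a type and less RNA per cell cannot be told apart.

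For labelled pig 3 against pig 1, 11 of the 34 genes passed the limma test, 4 higher and 7 lower, where 26.1% of all 6765 genes were called (9.46% higher and 16.6% lower). The GTPases' count is close to that background. The median difference of the 34 was -0.05, against -0.02 for all genes. The count changed when 1 unit of each pig was left out, and so did the share of all genes called. It was 8 (18.7% of all genes) without culture 1 at 0 and 2 h, 3 (10.5%) without culture 1 at 7 and 24 h, 2 (8.01%) without culture 2 at 0 and 2 h, and 2 (17.3%) without culture 2 at 7 and 24 h. Without the 8 arrays against their labelled sex it was 0 (0.0%). For labelled pig 2 against pig 1, 0 of 34 were called, against 0.443% of all genes, and 9 of 34 had an unadjusted p under 0.05, against 29.0%. For pig 3 against pig 2, 1 was called, RAB23, against 0.562%. Over all 3 labelled pigs 6 of 34 passed the F test, against 19.5% of all genes.

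The 4 genes that were higher under pig 3 than under pig 1 belonged to different steps of traffic. RAB23, known in mice as an antagonist of hedgehog signalling in the cilium, had the smallest adjusted p. Its lowest, median and highest values were 9.42, 9.77 and 9.91 under pig 3, 8.23, 8.76 and 9.07 under pig 2, and 8.57, 8.71 and 9.21 under pig 1. All arrays labelled pig 3 lay above all others, with a difference of 0.91 ± 0.18 log2 (SE, adjusted p = 0.00881) from pig 1 and of 1.04 ± 0.18 (adjusted p = 0.0491) from pig 2. Its other 2 probe sets were not called, at -0.49 and 0.10 against pig 1 and at 0.30 and 0.47 against pig 2. The one at -0.49 thus had the opposite sign, and its median of 8.79 was close to the 8.89 of the chosen one. The direction of RAB23 against pig 1 therefore depended on the probe set. Of the 34 genes RAB23 and RAB8A were the ones whose arrays under pig 3 all lay above those of pig 2, where 2.32% of all genes did so.

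RAB8A, which carries vesicles from the Golgi and recycling endosomes to the plasma membrane, had 7.11, 7.21 and 8.21 under pig 3, 6.04, 6.45 and 7.02 under pig 2, and 6.24, 6.51 and 6.73 under pig 1 (lowest, median and highest). The difference from pig 1 was 0.99 ± 0.23 (adjusted p = 0.0177), and its second probe set gave 0.68 without a call (adjusted p = 0.214). The 3 highest arrays were those of culture 2 at 0, 2 and 7 h, at 7.65 to 8.21. RAB3D, a RAB of secretory granules, had 7.52, 8.14 and 9.19 under pig 3, 6.73, 7.31 and 7.73 under pig 2, and 7.02, 7.27 and 7.85 under pig 1. Pig 3 overlapped with both other pigs, and the difference from pig 1 was 1.02 ± 0.30 (adjusted p = 0.0408). The other 2 probe sets of RAB3D ranged over 0.50 and 0.85 log2 units, against 2.46 for the chosen one, and gave 0.15 and 0.14 without a call. ARF6, the ARF of the plasma membrane and of phagocytosis, had 11.22, 11.41 and 11.52 under pig 3 and 10.90, 11.01 and 11.15 under pig 1. The 2 did not overlap, and the difference was small, at 0.34 ± 0.08 (adjusted p = 0.0139).

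**Figure D4:**
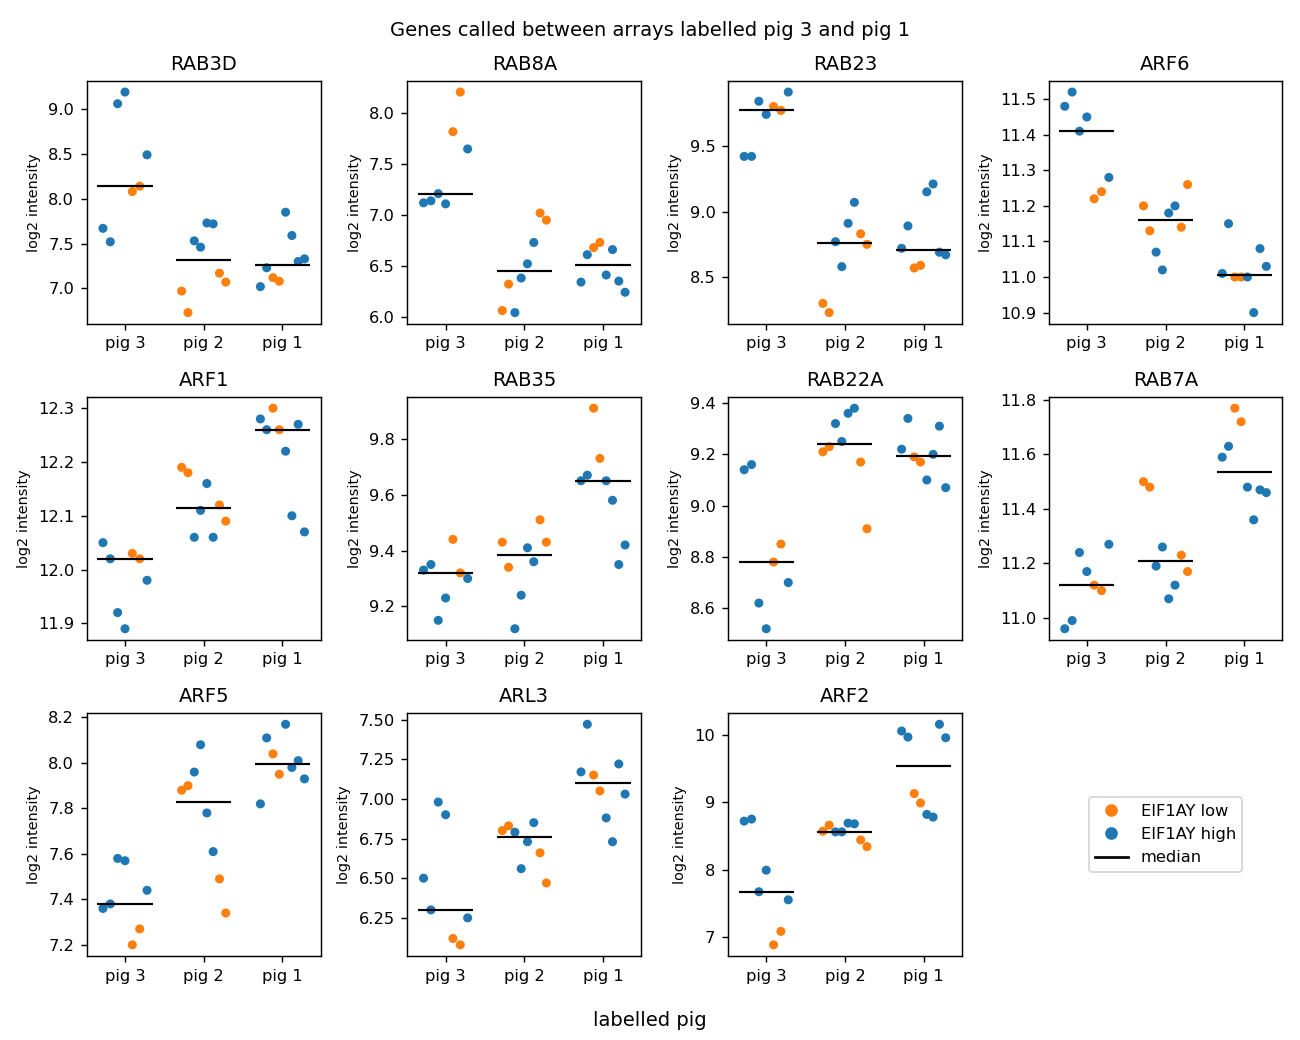
Log2 intensity on each array for the 11 genes called between arrays labelled pig 3 and pig 1, by labelled pig (7, 8 and 8 arrays from left to right), with the median as a bar and colours for the EIF1AY level. Among others, RAB23 and RAB8A under pig 3 lie above all arrays of both other pigs, and ARF2 has medians of 7.67 under pig 3, 8.56 under pig 2 and 9.55 under pig 1; each panel has its own axis.

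The 7 genes that were lower under pig 3 than under pig 1 included 3 Golgi ARFs. ARF2 had a lowest, median and highest value of 6.88, 7.67 and 8.75 under pig 3, 8.34, 8.56 and 8.69 under pig 2, and 8.78, 9.55 and 10.16 under pig 1. Every array labelled pig 1 lay above every other array, and the difference of pig 3 from pig 1 was -1.71 ± 0.38 (adjusted p = 0.014). The second ARF2 probe set gave -1.0 ± 0.32, with an adjusted p of 0.0544. ARF5, a class II ARF, had 7.20, 7.38 and 7.58 under pig 3 and 7.82, 7.99 and 8.17 under pig 1, which did not overlap (-0.60 ± 0.13, adjusted p = 0.011). ARF1 had 11.89, 12.02 and 12.05 under pig 3 and 12.07, 12.26 and 12.30 under pig 1, apart by a narrow margin (-0.23 ± 0.06, adjusted p = 0.0216). ARF4, the remaining ARF of the Golgi, was not called, at -0.06 ± 0.06 (adjusted p = 0.571).

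The other 4 act on endosomes or in the cilium. RAB7A, the RAB of late endosomes and of phagosome fusion with lysosomes, had 10.96, 11.12 and 11.27 under pig 3 and 11.36, 11.54 and 11.77 under pig 1, without overlap (-0.42 ± 0.11, adjusted p = 0.0233). RAB22A had 8.52, 8.78 and 9.16 under pig 3 and 9.07, 9.19 and 9.34 under pig 1 (-0.39 ± 0.10, adjusted p = 0.0264). RAB35, which sorts cargo back to the plasma membrane, had 9.15, 9.32 and 9.44 under pig 3 and 9.35, 9.65 and 9.91 under pig 1 (-0.32 ± 0.10, adjusted p = 0.0472), and its second probe set gave -0.01. ARL3, which releases lipid-modified cargo in the cilium, had 6.08, 6.30 and 6.98 under pig 3 and 6.73, 7.10 and 7.47 under pig 1 (-0.66 ± 0.17, adjusted p = 0.0257). RAB22A, RAB35 and ARL3 overlapped between these pigs. In all, 3 of the 34 genes had all arrays of pig 3 above those of pig 1, against 7.38% of all genes, and 4 had them below, against 15.1%. For pig 3 against pig 2, ARF1 was the 1 gene with all arrays below (2.26%), and for pig 2 against pig 1, ARF2 was the 1 below (6.9%) and 0 were above (3.49%).

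Among the late endosomal and phagosomal RABs, 4 of 5 had a range of at least 1 log2 unit, against 47.5% of all genes. RAB7A was the 1 called for pig 3 against pig 1, against 26.1% of all genes. A group of 5 is too small to read these counts as a trait of it. RAB9A, which returns receptors from late endosomes to the Golgi, ran from 8.11 to 9.99 and was highest on 3 arrays labelled pig 3, at 9.64 to 9.99. It was not called between pig 3 and pig 1 (0.47 ± 0.25, adjusted p = 0.223), although its second probe set was (0.46 ± 0.14, adjusted p = 0.0485). RAB32, a RAB of lysosome-related organelles, ran from 9.33 to 10.48, RAB24, which is linked to autophagy, from 8.38 to 9.68, and RAB34, linked to phagosome maturation and the cilium, from 4.91 to 6.07. None of these 3 was called between labelled pigs. Among the RABs of regulated secretion, RAB27B ran from 3.70 to 5.17 and RAB3A from 4.50 to 5.70. RAB27B and RAB15 were the 2 of 34 genes with a mean in the lowest 25% of probe sets (below 4.49). RAB40C, a subunit of a ubiquitin ligase, ran from 7.20 to 8.11.

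Probe sets of 1 gene could differ. Of the 15 genes with more than 1, 3 had a probe set that disagreed with the chosen one, in that the wider of the pair ranged over at least 1 log2 unit and more than 2-fold the narrower: RAB3D, RAB11A and RAB2A. This rule uses the range and not the direction, so it does not count RAB23, whose probe sets differed in sign for pig 3 against pig 1. RAB11A, the RAB of the recycling endosome, ranged over 0.56 on the chosen probe set, which gave -0.02 for pig 3 against pig 1, and over 1.36 on the other, which gave -0.70 ± 0.15 (adjusted p = 0.0106). The second RAB2A probe set ranged over 1.39 and differed within the most similar pairs by a median of 0.52, against 0.04 for the chosen one. In 11 of 11 pairs it was higher on the array labelled 2 or 24 h than on the array labelled 0 or 7 h, with 7.37, 7.69 and 8.24 (lowest, median and highest) on the 11 arrays labelled 2 or 24 h and 6.85, 7.15 and 7.64 on the 12 labelled 0 or 7 h. The array labelled 2 or 24 h was also the later column of each neighbouring pair, so labelled time and column order cannot be told apart. Of all 23999 probe sets, 80 (0.333%) were higher in 11 of 11 pairs, and the second RAB2A probe set was the 1 among the 54 probe sets of the GTPases. The second probe sets of RAB11A and RAB1A were higher in 10 of 11 pairs (1.25% of all probe sets), the chosen ones of ARF1 and RAB4B in 1 of 11 (1.21%), and the chosen RAB2A probe set in 8 of 11 (8.38%). These pair counts were picked as the extremes of the 54 and have no test. In the limma fit between labelled times, the second RAB2A probe set differed by 0.56 ± 0.1 at 2 h against 0 h. It differed by -0.58 ± 0.1 at 7 h against 2 h and by 0.53 ± 0.1 at 24 h against 7 h. It was not called in any of these comparisons.

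The regulators and effectors of these switches were counted from lists of 173 genes, of which 81 were measured. Of these, 37 had a range of at least 1 log2 unit, against 47.5% of all genes, and the median range was 0.93, against 0.96 for all genes. None passed between labelled times. For labelled pig 3 against pig 1, 5 were higher and 11 lower, against 9.46% and 16.6% of all genes, and the median difference was -0.07. By list, the effectors of RABs had 3 higher and 3 lower of 19, the GTPase-activating proteins of ARFs 2 higher of 11, and the effectors and partners of ARF and ARL proteins 5 lower of 19. The exchange factors of RABs had 1 lower of 14, those of ARFs 1 lower of 5, the delivery and lipidation factors 1 lower of 3, and the GTPase-activating proteins of RABs 0 of 10.

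The regulators with the widest ranges included several that act on the genes above. ARAP2, a GTPase-activating protein for ARF6, had a lowest, median and highest value of 7.06, 8.21 and 8.74 under pig 3, 7.46, 7.84 and 8.49 under pig 2, and 4.90, 5.78 and 6.25 under pig 1. It was higher than under pig 1 both in pig 3 (2.43 ± 0.32, adjusted p = 0.00258) and in pig 2 (2.25 ± 0.32, adjusted p = 0.0418). OPTN, an effector of RAB8 and an autophagy receptor, had 12.63, 12.74 and 12.88 under pig 3, against 9.88, 10.61 and 11.11 under pig 1, without overlap (2.22 ± 0.33, adjusted p = 0.0036). RILPL2, which binds phosphorylated RAB8 and RAB10, ran from 11.05 to 12.09 under pig 3, against 10.20 to 10.74 under pig 1 (1.22 ± 0.37, adjusted p = 0.0437). ASAP3, another GTPase-activating protein of ARFs, had 7.88, 8.19 and 9.05 under pig 3, against 6.58, 6.74 and 6.84 under pig 1 (1.63 ± 0.32, adjusted p = 0.0086). ARFGEF2, an exchange factor that activates ARFs at the trans-Golgi, was lower, with 6.78, 8.01 and 8.39 under pig 3, against 9.44, 9.60 and 9.66 under pig 1 (-1.76 ± 0.30, adjusted p = 0.00513). RAB3IP, an exchange factor for RAB8 (range 3.20), MLPH, an effector of RAB27 (2.69), and ARAP3 (2.39) had wide ranges and were not called, at -0.52, -1.17 and -0.63 for pig 3 against pig 1.

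RAB14, RAB18 and RAB23 set the same 5 arrays apart from the rest, by the widest gap in each gene's sorted values. These were the arrays labelled pig 3 at 7 and 24 h in culture 1 and at 0, 2 and 7 h in culture 2. RAB14, which moves cargo between early endosomes and the Golgi, had 9.80 to 9.99 on these 5, with the next array at 9.52. RAB18, a RAB of the endoplasmic reticulum and lipid droplets, had 11.55 to 11.71, with the next at 11.33, and RAB23 had 9.74 to 9.91, with the next at 9.42. RAB14 and RAB18 were not called for pig 3 against pig 1 (0.34 ± 0.13 and 0.38 ± 0.14, adjusted p = 0.0835 and 0.0803). For RAB14 and RAB18 the 2 remaining arrays of pig 3 lay within the range of the other pigs, whereas for RAB23 both stood at 9.42, above the highest array of the other pigs (9.21). These arrays were picked by the values themselves, so no group of arrays was tested.

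**Figure D5:**
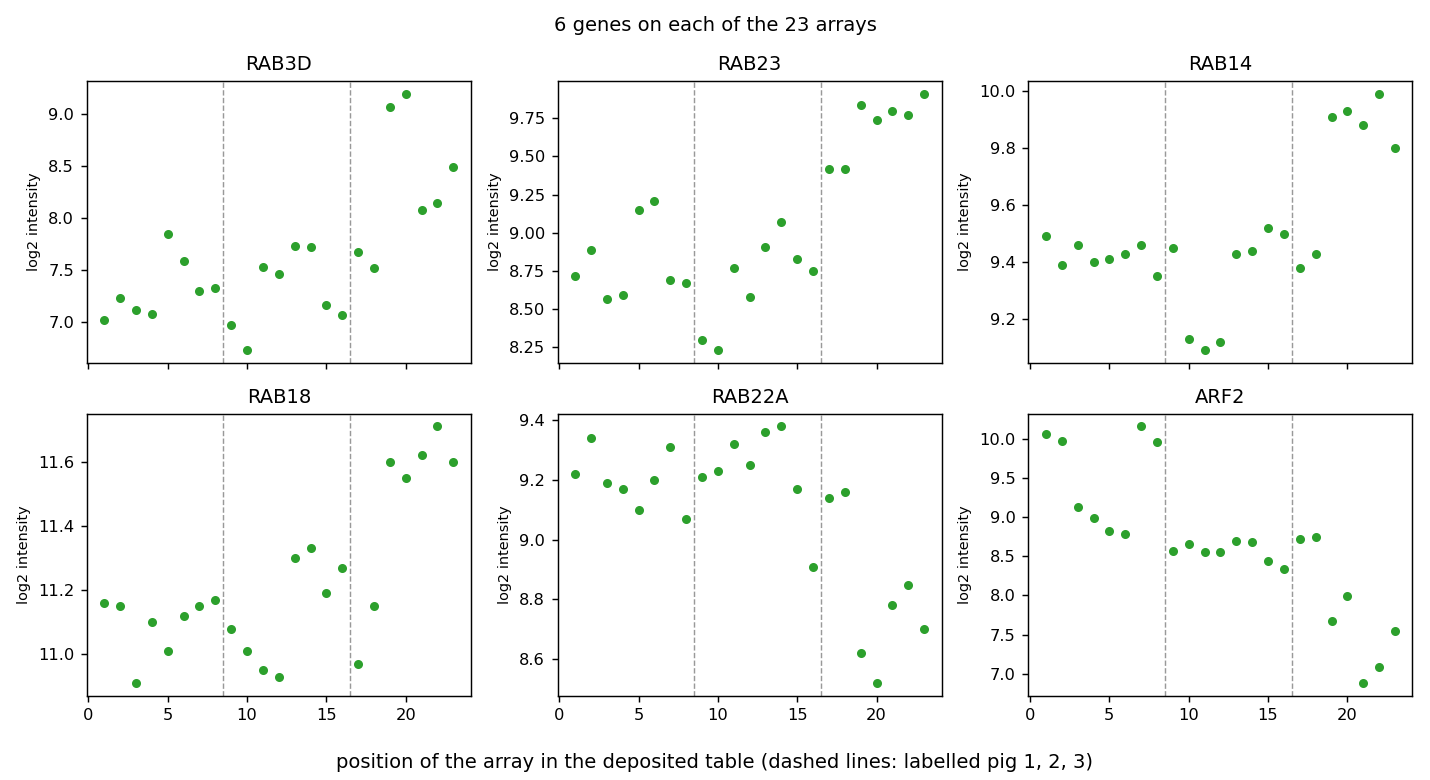
Log2 intensity of RAB3D, RAB23, RAB14, RAB18, RAB22A and ARF2 on each array by its position in the deposited table, with dashed lines between the labelled pigs. RAB14, RAB18 and RAB23 are highest on the last 5 arrays, all labelled pig 3, where ARF2 is lowest (6.88 to 7.99).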

How the data were processed

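Porcine Affymetrix arrays were run on 23 samples. Per the submitters' processing notes, the authors made the values with affy and RMA, versions not given in the sources used here, and deposited them as linear intensity. Array medians were 69.5 to 73.9, and the number of arrays limits the precision. Values were log2 transformed, and 124 control probe sets were left out of 24123. Symbols came from the platform annotation, checked against RefSeq, and 33 of 34 members matched. Differences were tested with limma 3.58.1 in R 4.3.3, with Benjamini-Hochberg adjustment over 23999 probe sets and a threshold of 0.05. Times were compared on 12 pig-by-time means with pig as a term, and pigs on 12 units of culture and time class. The labels pair times by pig. Deviations within a pig correlated at 0.87 to 0.97 between 2 and 0 h and at 0.83 to 0.90 between 24 and 7 h. In the other comparisons they correlated at 0.27 to 0.78. The high values belong to the labelled times joined in the most similar pairs, so they cannot show that the labels pair animals. Duplicates are labelled as separate cultures. The p-values of the time tests measure the spread between the pig-by-time means, and that of the interaction test the spread between duplicates. Those of the pig tests measure the spread between units under 1 pig label, and not a spread between known animals. A label may hold arrays of more than 1 animal. Genes were named by the widest and narrowest ranges, the pig calls and the widest regulators. Members and lists were chosen with earlier results of these data known. The scripts were tested on simulated data.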

Additional observations from a re-analysis of the deposited data

Results flagged for a closer look

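In 4 of 98 groups of 4 to 10 arrays tested over 14 genes, 1 array stood far from the others by Dixon's criterion, which chance meets in about 1 in 20 groups. RAB3D was at 9.19 on the only pig 3 array labelled 24 h, against 7.07 to 7.46 on the other arrays of that time label. RAB23 was at 9.74 on the same array, against 8.58 to 8.75. Neither value stood alone among the arrays of pig 3. RAB3D was at 9.06 on the culture 1 array labelled pig 3 at 7 h, and RAB23 was at 9.42 to 9.91 on all arrays labelled pig 3. RAB3A was at 4.50 on the culture 1 array labelled pig 2 at 7 h, against 4.95 to 5.22 on the other arrays of pig 2. RAB32 was at 10.48 on the culture 2 array labelled pig 3 at 7 h, against 9.87 to 10.11 on the other arrays of pig 3.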

How the results depend on the processing

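The time and interaction counts were 0 of 34 under all 63 alternatives run, the fit with no replicate block among them. Over all genes, the time alternatives called at most 3. The interaction called 529 of 6765 genes without the arrays against their labelled sex, against 1 as reported. All these alternatives kept the labels, which did not pass their check. Counts between labelled pigs depended on the units. With 23 arrays as separate units and with pig-by-time means, they were 15 and 14 for pig 3 against pig 1 (11 as reported), with 47.2% and 43.8% of all genes called (26.1%). They were 12 and 13 for pig 3 against pig 2 (1), with 21.4% and 23.4% of genes (0.562%), and 12 and 8 for pig 2 against pig 1 (0), with 33.4% and 29.3% (0.443%). Over all pigs they were 20 and 20 (6), with 54.4% and 48.4% (19.5%). Leaving out 1 unit of each pig gave 2 to 8 for pig 3 against pig 1 (8.01% to 18.7% of genes), 0 to 4 for pig 3 against pig 2 (0.0% to 7.11%) and 0 to 6 over all pigs (0.0% to 16.7%). Without the arrays against their labelled sex, all 3 of these counts were 0, with at most 0.0296% of genes called. With a replicate block they were 10 for pig 3 against pig 1 (22.2% of genes) and 4 over all pigs (14.6%). Quantile normalization gave 0 for pig 3 against pig 2. The 11 differences of pig 3 from pig 1 kept their sign in 10 of 10 alternatives and were called in 4 to 7 of them. These alternatives reuse the arrays and labels on which the genes were called, so a kept sign is no independent support. Without the arrays against their labelled sex the 11 had a limma adjusted p of 0.143 to 0.295. Over all probe sets, calls for pig 3 against pig 1 were 4566 as reported and 1 to 8722 over the alternatives. The number of GTPases with a range of at least 1 log2 unit was 8 to 12 over its alternatives. The cause of these changes was not tested.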
